A study of Mus musculus with 18 samples.

Results

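DMC1 ChIP-seq signal was compared between spermatocytes that lack EWSR1 and spermatocytes of the C57BL/6J strain at the autosomal recombination hotspots that the authors listed as shared between genotypes. The members were chosen by position alone: every listed DMC1 site on chromosomes 1 to 19 was taken, which gave 8744 of the 9132 sites, and the other 388 sites lay on the X chromosome. The study comprised 18 samples of spermatocytes from mice 14 days after birth, of which 13 were ChIP-seq for DMC1, H3K4me3 or H3K36me3 and 5 were input libraries. The control group (B6) was C57BL/6J, with no Cre or floxed allele named for it. The mutant group (Ewsr1 CKO) was labelled Ewsr1-CKO with Stra8-iCre, a Cre recombinase driven by the Stra8 promoter, which is active in germ cells as they approach meiosis. Another group, Prdm9 het (labelled Prdm9+/-, with 1 intact copy of the gene and no Ewsr1 allele or Cre named), is used only to rank sites by strength. The tables hold no expression, so neither the cell type nor the loss of Ewsr1 was checked against its own RNA. Each of the groups had 2 DMC1 samples, and the deposited table gives a single value per group and site. How the samples enter that value is not given in the sources used here, so there is no spread between animals, no p-value is attached to any difference, and all ratios describe these columns.

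Meiotic recombination starts with programmed double strand breaks at hotspots. In mice the position of most hotspots is set by PRDM9, a zinc finger protein that binds a DNA motif and places H3K4me3 and H3K36me3 on the nucleosomes around it. SPO11 then cuts the DNA, the ends are resected, and DMC1 coats the exposed single strands to search for a homologous partner. DMC1 ChIP signal at a hotspot therefore depends both on how often the site is cut and on how long its single strands last, and these cannot be told apart here. EWSR1 is an RNA-binding protein of the FET family, and the title of the series ties it to PRDM9-dependent histone methylation and to the chromosome axis, the protein core along which meiotic chromatin loops are arranged.

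Most hotspots lie away from promoters, and sequence was available for promoter windows only, 300 bases each from RefSeq on GRCm38.p6 (the same chromosomes as mm10, the build named in the submitters' processing notes). Of 31396 autosomal windows, 129 lay wholly inside a listed site, at 118 sites and 119 genes. The windows were searched on both strands for GNTGCTNCT (reverse complement AGNAGCANC), a string of 9 letters that forms part of the motif described for C57BL/6 PRDM9, and overlapping matches were counted. It occurred in 10.9% of the windows inside hotspots (14 of 129) and in 7.13% of all autosomal windows. Among windows inside hotspots, 12 of the 64 centred within 500 bp of the middle of their site held the string (18.8%), against 2 of the 65 centred farther out (3.08%). Windows can overlap, and 2 windows of the gene Gm31954 that hold the same match count among both the 14 and the 12. A match describes letters and is no evidence of binding. The 4 windows below are shown because they hold the string inside a hotspot and span the ratios found among such windows, the 2 lowest and the 2 highest. They were chosen after their values were seen. Capitals mark the match, on either strand, and each window is written 5′ to 3′ along the strand of its gene.
Gm46165: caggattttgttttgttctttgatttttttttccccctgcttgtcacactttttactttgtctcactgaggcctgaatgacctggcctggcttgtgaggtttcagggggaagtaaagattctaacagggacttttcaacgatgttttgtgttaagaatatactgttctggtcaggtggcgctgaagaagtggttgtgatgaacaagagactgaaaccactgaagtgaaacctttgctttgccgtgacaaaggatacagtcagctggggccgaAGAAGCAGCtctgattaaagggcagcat
Akt2: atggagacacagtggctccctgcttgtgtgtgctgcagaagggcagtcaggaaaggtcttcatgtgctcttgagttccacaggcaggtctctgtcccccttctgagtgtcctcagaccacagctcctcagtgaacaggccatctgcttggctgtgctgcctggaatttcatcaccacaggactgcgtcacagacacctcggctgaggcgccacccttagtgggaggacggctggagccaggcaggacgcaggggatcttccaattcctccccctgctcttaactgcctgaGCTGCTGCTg
Ebi3: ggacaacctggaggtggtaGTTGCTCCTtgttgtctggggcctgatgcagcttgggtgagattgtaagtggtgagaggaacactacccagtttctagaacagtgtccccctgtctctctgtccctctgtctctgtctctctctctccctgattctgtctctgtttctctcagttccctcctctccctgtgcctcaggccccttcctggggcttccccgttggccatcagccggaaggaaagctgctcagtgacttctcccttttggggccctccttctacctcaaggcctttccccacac
Zfp616: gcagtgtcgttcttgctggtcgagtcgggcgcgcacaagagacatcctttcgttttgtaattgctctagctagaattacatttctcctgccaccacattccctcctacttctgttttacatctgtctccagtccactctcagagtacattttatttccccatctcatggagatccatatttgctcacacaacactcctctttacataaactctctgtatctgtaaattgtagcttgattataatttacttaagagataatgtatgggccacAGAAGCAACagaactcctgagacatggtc

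The Gm46165 window (chr1:154103613-154103912, plus strand) sits in a strong hotspot that had 323 RPM (library-scaled reads) of DMC1 in B6 against 185 RPM in the mutant (log2 ratio −0.80). The hotspot over the promoter of Akt2, a kinase of insulin signalling (chr7:27605547-27605846, plus strand), had 69.3 and 64.8 RPM, and its match lay 58 bp from the middle of the site. At the promoter of Ebi3, which encodes a subunit shared by cytokines (chr17:55952373-55952672, plus strand), DMC1 was 13.8 RPM in B6 against 23.8 RPM in the mutant. At that of Zfp616, a zinc finger gene (chr11:74060647-74060946, plus strand), it was 22.2 and 42.7 RPM, 1.92-fold higher in Ewsr1 CKO, with the match 68 bp from the middle of the site. Of the 13 hotspots with the string in such a window, 2 had a ratio below 0 (Gm46165 and Akt2) and 11 a ratio above 0, where 34.4% of all autosomal sites were below 0 as deposited and 56.8% with both columns at the same median. Nothing particular to these few hotspots is read from that split. The exact binomial 95% interval of the Akt2 ratio (0.804 to 1.09) included no change. Over all 118 sites that hold a promoter window the median log2 ratio was 0.13 and 44 were lower in Ewsr1 CKO, beside a median of 0.16 and 34.4% lower over all autosomal sites.

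Autosomal hotspots took a larger part of the listed DMC1 signal when EWSR1 was missing, and within the autosomes the signal was spread more evenly. The column totals over all listed sites were 867788 RPM in B6 against 867820 RPM in the mutant. Of these, autosomal sites held 713518 RPM (82.2%) in B6 against 765437 RPM (88.2%) in Ewsr1 CKO. With totals this close, a lower value on the X goes with a higher one on the autosomes, here by 7.28% or 0.10 on the log2 scale. Which of these parts changed cannot be told from such values. The values therefore show how signal is shared out, and whether the number of breaks per cell differed cannot be told from them.

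Each column's values had a smallest increment, of which all were whole multiples within 0.1 of it, and if 1 increment stands for 1 read the autosomal sites held 5548165 reads in B6 and 3117723 reads in Ewsr1 CKO. The authors do not state this reading. On it the median autosomal site held 368 reads in B6 (range 38 to 9435) and 228 reads in Ewsr1 CKO (range 12 to 4425). It is used below for counting error (intervals, and the spread or share that counting alone gives) and for the depth of the weakest sites. Such estimates leave out differences between animals and treat reads of amplified libraries as independent.

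DMC1 at the median autosomal site was 47.3 RPM in B6 (quartiles 24.6 and 98.2) against 56.0 RPM in Ewsr1 CKO (quartiles 30.2 and 109). The lowest and highest sites were at 4.89 and 1213 RPM in B6, against 2.95 and 1086 RPM in Ewsr1 CKO. The distributions overlapped over nearly their whole range, with the upper end lower and the middle higher in Ewsr1 CKO. On the log2(RPM + 1) scale, which understates changes of low sites, the median ratio (Ewsr1 CKO over B6) was 0.16, with quartiles of −0.11 and 0.47. Its 95% order-statistic interval over sites was 0.15 to 0.17. That interval treats sites as independent, though neighbouring sites had similar ratios, and leaves out scaling and differences between animals. The median was 0.060 with both columns at the same autosomal total and −0.076 with both at the same autosomal median. Ewsr1 CKO was lower at 3012 sites and higher at 5732 sites, so that 34.4% of autosomal sites were lower. This split depends on the scaling: 44.2% were lower when both columns were brought to the same autosomal total, and 56.8% when they were brought to the same median.

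Differences of large size were uncommon, and in the deposited values most were gains. At least 2-fold more DMC1 was present in Ewsr1 CKO at 449 autosomal sites (5.13%) and at least 2-fold less at 48 sites (0.549%). Over all 9132 listed sites the same counts were 453 (4.96%) and 86 (0.942%). With both columns at the same autosomal median the autosomal counts were 191 and 120. Without the weakest 25% of sites they were 309 and 19. As deposited, a limit of 1.5-fold was passed upwards by 1664 autosomal sites (19%) and downwards by 264 (3.02%). Relative to the autosomal total, the exact 95% binomial interval of the ratio lay above no change at 2846 sites and below it at 2012 sites, while at 3886 sites it included no change. The ratio had a standard deviation of 0.45 over sites, counting error alone gives 0.14, and subtracting the variances leaves 0.43. The plot of Ewsr1 CKO against B6 shows this spread as a band along the line of equality.

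**Figure D1:**
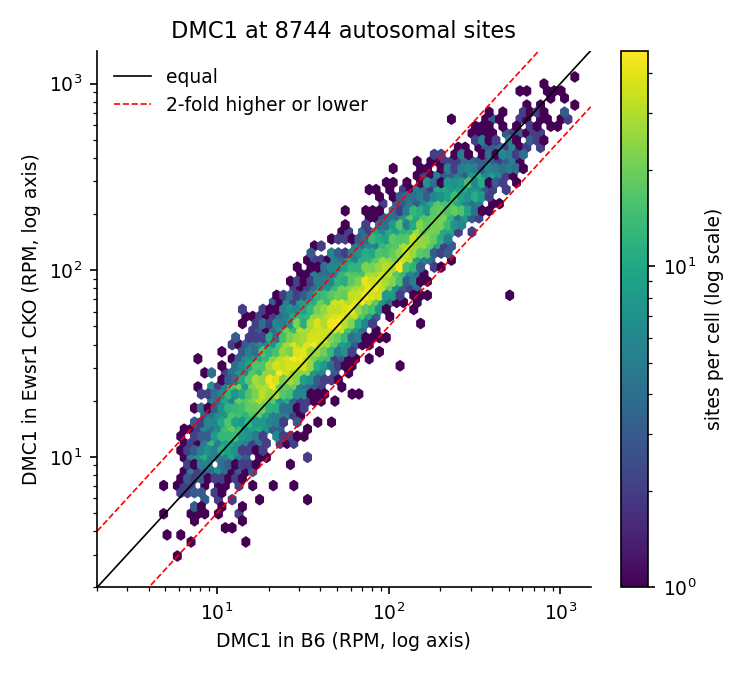
DMC1 in Ewsr1 CKO (vertical, RPM, log axis) against B6 (horizontal, RPM, log axis) at the 8744 autosomal sites, with colour for the number of sites per cell; the solid line marks equal values and the dashed lines a 2-fold difference. More sites lie beyond the upper dashed line (449) than beyond the lower one (48), and 1 strong site stands far below the band, at 519 RPM in B6 against 75.9 RPM in the mutant.

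Signal was less concentrated in Ewsr1 CKO. The strongest 10% of autosomal sites of each column (874 sites) held 38.6% of the autosomal signal in B6 against 35.3% in Ewsr1 CKO, a difference of −3.31 percentage points, against Wilson 95% counting intervals of 38.6 to 38.7% and 35.3 to 35.4%. The strongest 1% (87 sites) held 8.40% and 7.06%. At the other end, the weaker 4372 sites held 15.6% of the signal in B6 against 17.7% in Ewsr1 CKO. The Gini coefficient, which is 0 when all sites are equal and 1 when a single site holds everything, was 0.521 in B6 and 0.483 in Ewsr1 CKO. The effective number of sites (inverse Simpson index) was 3467 in B6 and 4041 in Ewsr1 CKO, 1.17-fold higher. In B6 the strongest 1378 sites were needed to collect 50% of the signal, and in Ewsr1 CKO 1567 sites.

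The same flattening appears as a trend of the ratio with strength. Sites in the weakest 10% by mean log2 value had a median of 11.8 RPM in B6 against 14.0 RPM in the mutant, a log2 ratio of 0.20. The ratio was highest in the next group, at 0.28, and declined through 0.18 in the sixth to −0.04 in the strongest 10%, where the medians were 260 and 266 RPM. The sites were also ranked by the Prdm9 het column, DMC1 in mice with a single intact copy of Prdm9, which entered neither side of the ratio. That order gave 0.21 in the weakest 10% and −0.07 in the strongest. The strongest 10% by Prdm9 het held 35.7% of the autosomal signal in B6 against 32.1% in Ewsr1 CKO. Ranked by B6 alone, the strongest and weakest 10% differed by −0.50. Ranked by Ewsr1 CKO alone they differed by only 0.02, within the order-statistic error of 0.049. Both of these columns enter the ratio, and the size of the trend depends on the column that sets the order.

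**Figure D2:**
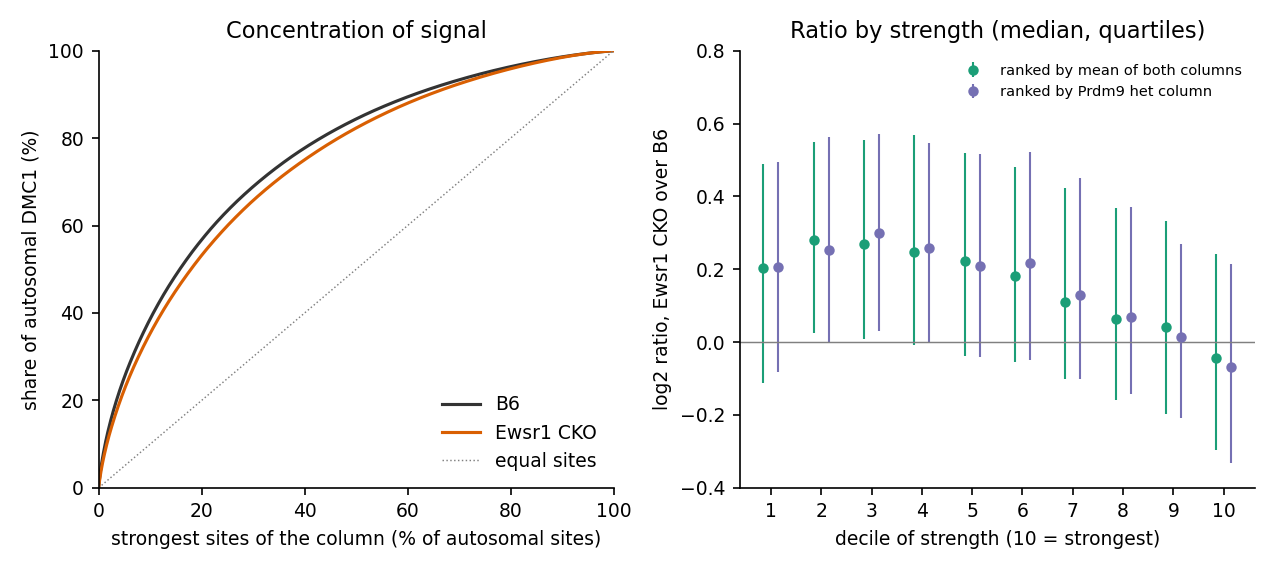
Left, share of autosomal DMC1 (%) held by the strongest sites of each column against the share of sites (%), for B6 and Ewsr1 CKO, with the dotted line for equal sites; the Ewsr1 CKO curve runs below B6 throughout the strong sites (35.3% against 38.6% at 10% of sites). Right, median ratio (log2, Ewsr1 CKO over B6) with bars for the quartiles over sites, by decile of strength from 1 (weakest) to 10 (strongest), ranked by the mean of both columns or by the Prdm9 het column; both orders end below 0 in the strongest decile.

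The strongest autosomal hotspots kept high DMC1 in both columns with unequal ratios. The strongest site (chr1:68487445-68490678), inside Erbb4, a receptor tyrosine kinase gene, ranked first in both, with 1213 RPM in B6 against 1086 RPM in the mutant. The site inside Gabrb1, a GABA receptor subunit gene (chr5:71870525-71873807), had 1095 and 862 RPM. The site inside Atad2b, which encodes a bromodomain ATPase (chr12:4972671-4976035), had the lowest ratio of the 6 strongest, with 1194 and 782 RPM, or 0.655 of B6 (exact binomial 95% interval 0.629 to 0.682). Inside the RefSeq lncRNA gene Gm32357 on chromosome 16 (chr16:86241217-86244009) the values were 1041 and 938 RPM, and at a second chromosome 1 site near Erbb4 (chr1:67960819-67963799) they were 945 and 889 RPM. The exception was a site 561 kb from Cdh6, a cadherin gene (chr15:13737490-13739937), which went from 832 RPM and rank 18 in B6 to 977 RPM and rank 2 in Ewsr1 CKO. With both columns at the same autosomal median its log2 ratio was −0.0093.

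Rank order was largely shared, and the shuffling that occurred was moderate. Spearman's rho between the columns was 0.942 over the 8744 sites, which come from the same 2 columns and are no replicates. The median site moved by 5.35 percentile points in rank, and 455 sites (5.20%) moved by more than 20 points, 305 of them upwards and 150 downwards. Of the 874 strongest sites in B6, 698 (79.9%) were also among the 874 strongest in Ewsr1 CKO. Of the 87 strongest, 54 (62.1%) were.

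Hotspots at or above median strength whose ratios were highest lay in gene-poor DNA. Weaker sites outside this list reached log2 ratios up to 2.03, in a window of chromosome 8 that held 117 coding genes. At a site 890 kb from Plod2, a collagen lysyl hydroxylase gene (chr9:93498895-93501768), DMC1 was 35.6 RPM in B6 against 135 RPM in the mutant, 3.79-fold higher (exact binomial 95% interval 3.27 to 4.40). The site moved from rank 5298 to rank 1642, a rise of 41.8 percentile points. On chromosome 4 (chr4:71279834-71282100) the values were 57.5 and 208 RPM, and on chromosome 15, inside the pseudogene Gm8408 (chr15:24204024-24206836), 30.4 and 108 RPM. These 3 sites had 1, 4 and 0 protein-coding genes centred within 1 Mb, where the median autosomal site had 13.

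A pair of neighbouring sites on chromosome 13, over 1 Mb from the nearest coding gene Cox7c, a subunit of cytochrome c oxidase, were both higher. At chr13:87421841-87424398 DMC1 was 36.5 RPM in B6 against 122 RPM in the mutant, and at chr13:87406157-87408910 it was 37.0 and 119 RPM. A site 711 kb from Grik2, a kainate receptor gene (chr10:48380800-48382833), went from 35.5 to 118 RPM, and one 321 kb from Nrg3, a neuregulin gene (chr14:39793895-39796445), from 41.4 to 137 RPM. Near Cdh9, a cadherin gene (chr15:16469566-16472416), the values were 80.5 and 264 RPM, the strongest of the group in both columns. The other 2 were inside Pdgfd, a growth factor gene (chr9:6458411-6461574, 36.1 and 120 RPM), and inside the lncRNA gene Gm6602 (chr3:112058547-112061099, 39.2 and 130 RPM).

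All 10 of these sites had between 0 and 8 coding genes within 1 Mb, 1 of 10 overlapped a coding gene (54.1% of all autosomal sites did), and none was closer than 10 Mb to its chromosome's last listed site, as were 7.33% of all autosomal sites, so that a count of 0 in 10 is near the background. In 9 of the 10, the 10 Mb window around the site, which includes the site itself, had a median ratio above the autosomal median. The same held for 1 of the 10 lowest sites described below. For background, the listed sites nearest to each autosomal site were at or above that median in 49.3% of cases.

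Among sites at or above median strength, the 10 lowest ratios lay mostly close to the distal chromosome end, with a median of 22 coding genes within 1 Mb. Weaker sites outside this list reached log2 ratios down to −2.39, in the last window of chromosome 11. The lowest of the 10 was at Fcna, a ficolin gene, and its antisense lncRNA gene on chromosome 2 (chr2:25629393-25632180), with 519 RPM in B6 against 75.9 RPM in the mutant, 6.84-fold lower. Its rank went from 80 to 3294, and 83 coding genes were centred within 1 Mb of it. It lay 156 Mb from the last listed site, and the median ratio of its own 10 Mb window was 0.13 over 36 sites.

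Of the other 9 sites, 8 were closer than 10 Mb to the distal end of the listed sites. The last listed site of chromosome 10 (chr10:130542171-130544985), 44.8 kb from the vomeronasal receptor gene Vmn2r87, went from 115 to 30.4 RPM, 3.79-fold lower, and from rank 1829 to rank 6528, a shift of −53.7 percentile points. The last listed site of chromosome 19 (chr19:61151791-61154940), inside the pseudogene Gm6020, went from 150 to 52.0 RPM. The ratios of these sites were 0.264 (exact binomial 95% interval 0.217 to 0.319) and 0.346 (0.298 to 0.401).

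Several of the remaining low sites sat inside coding genes near chromosome ends. Inside Rptor, the scaffold subunit of mTORC1 (chr11:119866024-119868661), DMC1 was 97.1 RPM in B6 against 42.2 RPM in the mutant. Inside Cacul1 (chr19:60538157-60541000) it was 142 and 62.1 RPM, and inside Klhdc4 (chr8:121820072-121822515) 162 and 73.9 RPM. Inside Oxsr1, a kinase of the osmotic stress response (chr9:119263581-119266169), it was 151 and 71.2 RPM, inside Tmtc1 (chr6:148308241-148311076) 91.7 and 43.5 RPM, and inside the pseudogene Mx2 (chr16:97542212-97545176) 89.4 and 37.8 RPM. The site inside Fbxw8, an F-box gene (chr5:118084373-118086850), was the only other one away from a distal end, 31.1 Mb from the last listed site, with 146 and 70.0 RPM. These 10 sites had 9 to 83 coding genes within 1 Mb, and 7 of 10 overlapped a coding gene, as did 54.1% of all autosomal sites. Their H3K4me3 in Ewsr1 CKO ranged from 1.26 to 8.75 RPM, against 0.329 to 1.44 RPM at the 10 highest ratios.

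The 449 and 48 sites past 2-fold showed a like contrast. They include the 10 highest and 10 lowest sites above and were chosen by the same ratio, so they give no separate support. The rule that chose these sets fixes that levels and shares rise in the first and fall in the second. Sites at least 2-fold higher had a median of 24.8 RPM in B6 against 61.6 RPM in the mutant. Together these higher sites went from 2.26% to 5.01% of autosomal signal. They were found on all 19 autosomes, had a median of 4 coding genes within 1 Mb, and 21.8% overlapped a coding gene, against 54.1% of all autosomal sites. Sites at least 2-fold lower had medians of 33.1 and 13.0 RPM, lay on 14 autosomes, had a median of 25 coding genes within 1 Mb, and 79.2% overlapped a coding gene. Of the 48, 33 were less than 10 Mb from that distal end, where 641 of the 8744 sites lie, and without those distal sites 15 were left. The listed site nearest to a site at least 2-fold higher had a median log2 ratio of 0.73, and the one nearest to a site at least 2-fold lower −0.66, beside 0.15 for the nearest neighbour of any site.

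Neighbouring hotspots had similar ratios, and the likeness declined with distance. The log2 ratios of 2 sites less than 0.1 Mb apart correlated with a Pearson r of 0.38 (3669 pairs of sites). The correlation was 0.30 at 0.5 to 1 Mb, 0.26 at 1 to 2 Mb, 0.15 at 3 to 4 Mb and 0.10 at 4 to 5 Mb, and at 5 to 10 Mb it was 0.003 (154406 pairs). Pairs share sites, so these values are descriptions. Leaving out the sites within 10 Mb of the last listed site gave 0.34 at the shortest and 0.10 at 4 to 5 Mb. The levels themselves were less alike between neighbours: below 0.1 Mb the correlation of log2 RPM between 2 sites was 0.078 in B6 and 0.13 in Ewsr1 CKO, and at 1 to 2 Mb it was 0.039 and 0.087.

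The amount of signal that changed place was 12.1% of the autosomal total between single sites, where counting error alone gives 2.37%. Between windows of 1 Mb it was 9.73%, between windows of 10 Mb 6.40% (0.438% from counting error) and between whole chromosomes 1.23%. In variance terms, windows of 1 Mb accounted for 33.6% of the variance of the log2 ratio beyond counting error (4886 sites). Windows of 2 Mb accounted for 38.8% (7931 sites) and windows of 10 Mb for 24.1% (8741 sites). Windows of 20 Mb accounted for 15.4% and chromosomes for 0.519% (8744 sites each). Windows needed 5 sites, so the smaller scales leave out sites of sparse regions and the sets of sites are unlike. The standard deviation between 10 Mb windows was 0.21, and within them, beyond counting error, 0.37. For the log2 level, 10 Mb windows accounted for 3.71% of the variance in B6 and 8.34% in Ewsr1 CKO, with standard deviations between windows of 0.26 and 0.37 and within windows of 1.32 and 1.22. The levels thus varied more between windows than the ratio did in absolute terms, and their smaller share goes with a larger spread between sites of the same window.

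**Figure D3:**
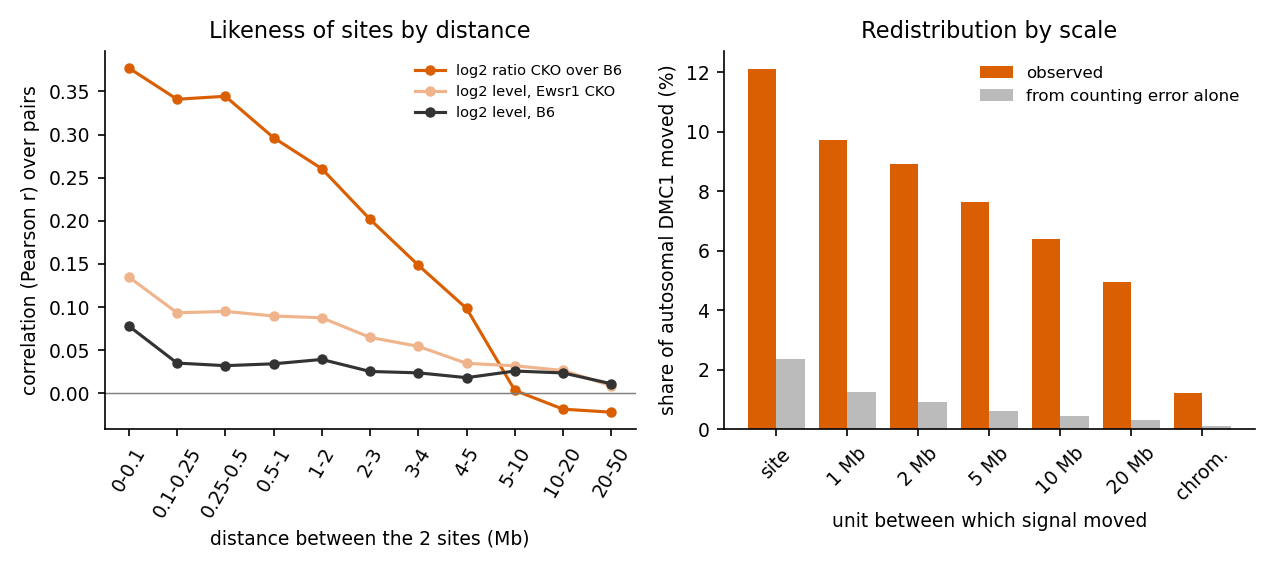
Left, Pearson correlation over pairs of autosomal sites of the same chromosome against their distance (Mb, bins not of equal width), for the log2 ratio of Ewsr1 CKO over B6 and for the log2 level in each column; the correlation of the ratio declines from 0.38 to 0.003 at 5 to 10 Mb, while the levels start at 0.13 or below. Right, share of autosomal DMC1 (%) that differs in place between the columns when counted between sites, windows of the given size or chromosomes, with grey bars for what counting error alone gives; it is 12.1% between sites and 6.40% between 10 Mb windows.

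Whole autosomes differed little. Their median log2 ratios ranged from 0.11 on chromosome 4 to 0.30 on chromosome 19, and the share of autosomal signal changed by at most 0.294 percentage points, on chromosome 19, from 2.36% to 2.66%. Of the 252 windows of 10 Mb with 5 or more sites, 41 had a median below 0 and 27 a median above 0.5, with quartiles of 0.04 and 0.31 over windows. High and low windows occurred on the same chromosome: medians ran from −1.43 to 0.43 on chromosome 11 and from −0.51 to 0.81 on chromosome 2.

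The 4 highest windows held few genes and lay inside chromosomes. Of the 27 windows with a median above 0.5, 23 held fewer coding genes than the median window (64) and 4 did not, among them chromosome 2 from 80 to 90 Mb with a median of 0.81 and 248 genes. The fifth highest window, at 0.83, was the first of chromosome 9. On chromosome 1 between 140 and 150 Mb all 31 sites were higher in Ewsr1 CKO, with a median log2 ratio of 0.93 and single sites from 0.16 to 1.70. Their summed DMC1 was 1913 RPM in B6 against 3491 RPM in the mutant. On chromosome 12 between 60 and 70 Mb the median was 0.86 over 29 sites (1742 and 3093 RPM), on chromosome 13 between 80 and 90 Mb 0.85 over 28 sites (1399 and 2502 RPM), and on chromosome 3 between 70 and 80 Mb 0.84 over 27 sites (2810 and 4441 RPM). These 4 windows held 14, 33, 15 and 21 coding genes. The site nearest the median of the chromosome 1 window, at chr1:143274015-143276382, had 25.3 RPM in B6 against 49.3 RPM in the mutant. In the other windows these sites had 24.0 and 44.4 RPM (chr12:68015293-68017207), 109 and 194 RPM (chr13:81349023-81351941), and 19.9 and 36.6 RPM (chr3:75517195-75519547).

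The 4 lowest windows were the last ones of their chromosomes, but not all last windows were low. Taking the last window with 5 or more sites of each of the 19 autosomes, 12 had a median below 0 and 7 a median above 0, up to 0.43 on chromosome 17. On chromosome 11 from 120 Mb on, 5 of 5 sites were lower, with a median log2 ratio of −1.43, and their sum went from 186 to 64.1 RPM. On chromosome 19 from 60 Mb on, 9 of 9 sites were lower (776 and 387 RPM in sum, median −0.78), and on chromosome 7 from 140 Mb on, 20 of 20 (843 and 503 RPM, median −0.73). On chromosome 16 from 90 Mb on, 23 of 27 sites were lower (2061 and 1462 RPM, median −0.62). In the chromosome 11 window the site nearest the median, at chr11:120104778-120106810, had 26.2 RPM in B6 against 9.08 RPM in the mutant. The corresponding sites had 45.3 and 26.0 RPM on chromosome 19 (chr19:61011019-61014050), 23.0 and 12.5 RPM on chromosome 7 (chr7:144176257-144179454), and on chromosome 16 (chr16:95496569-95499090) the log2 ratio of this site was −0.62.

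**Figure D4:**
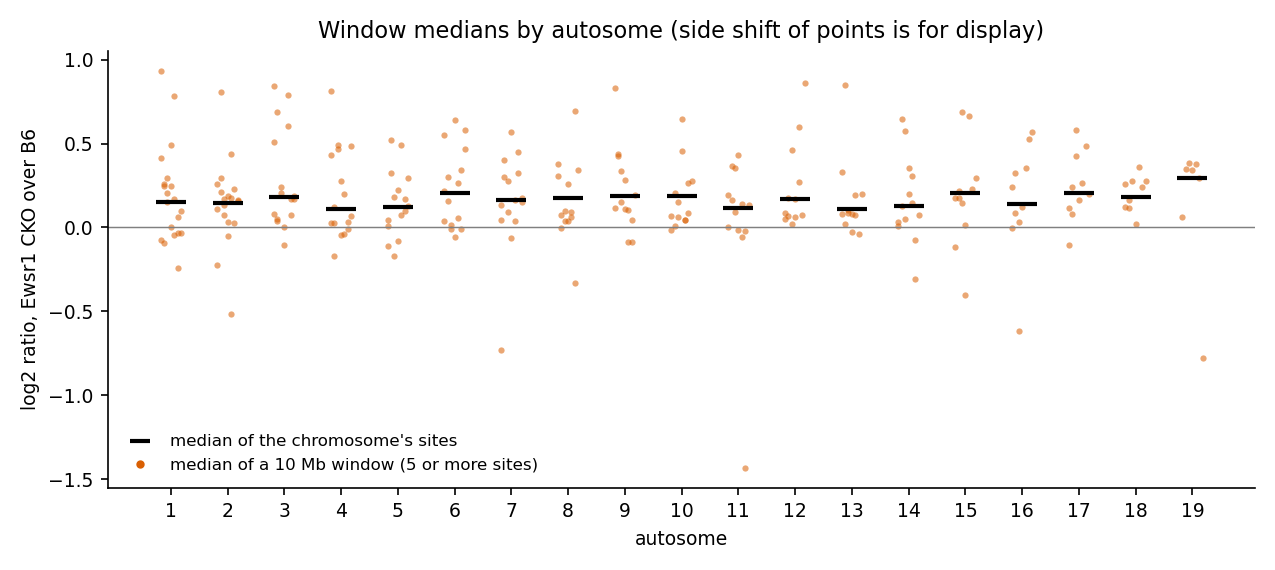
Median ratio (log2, Ewsr1 CKO over B6, vertical) for the 252 autosomal windows of 10 Mb with 5 or more sites (points) and for all sites of each chromosome (bars), by autosome (horizontal). Chromosome medians stay between 0.11 and 0.30, while windows range from −1.43 to 0.93. The last window of a chromosome ends at its last listed site and can be shorter than 10 Mb.

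Position along the chromosome went with the ratio mainly at the distal end. Within 1 Mb of the last listed site the median log2 ratio was −0.63 (84 sites, medians of 28.1 RPM in B6 against 15.5 RPM in the mutant), and 82.1% of sites were lower. It was −0.17 at 1 to 2.5 Mb, −0.004 at 2.5 to 5 Mb, 0.05 at 5 to 10 Mb and 0.21 at 10 to 20 Mb. It was highest at 20 to 40 Mb, at 0.26, and lower again farther away, with 0.22 at 40 to 60 Mb, 0.15 at 60 to 100 Mb and 0.11 beyond 100 Mb (1954 sites). The 641 sites within 10 Mb had a median 0.22 below the remaining sites. At the other end, where the mouse autosomes carry their centromere, the medians within 1 Mb and at 1 to 2.5 Mb of the first listed site were 0.03 and 0.04, and that at 10 to 20 Mb was 0.22, a smaller range.

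Gene number around a site went with the ratio, mainly through the gene-poorest regions. Protein-coding genes centred within 1 Mb of each site were counted from RefSeq. In the 25% of sites with the fewest genes (0 to 7) the median log2 ratio was 0.41, with 52.7 RPM in B6 against 71.9 RPM in the mutant at the median site. In the next 25% groups it was 0.12, 0.07 and 0.10. The gene-poorest group held 27.3% of autosomal signal in B6 against 32.4% in Ewsr1 CKO, and 12.7% of its sites were at least 2-fold higher, against 5.13% of all autosomal sites. Its median was 0.31 above that of the other sites, and 0.32 above without the distal 10 Mb. Sites that overlap no coding gene had a median of 0.25 (4017 sites) and those that overlap one 0.09 (4727 sites). Sites with few other hotspots within 1 Mb also had higher ratios: the median was 0.32 in the 25% with the fewest neighbours (0 to 6 sites) and 0.06 in the 25% with the most (10 to 22).

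Chromatin marks of the mutant, measured in other samples of the Ewsr1 CKO genotype, went with lower ratios. In the 25% of sites with the least H3K4me3 in Ewsr1 CKO (0.069 to 0.573 RPM) the median log2 ratio was 0.30, and in the 25% with the most (1.39 to 8.75 RPM) it was −0.003, a difference of −0.30. Their share of autosomal signal went from 11.4% to 13.6% and from 43.4% to 38.2%. Strong sites have more H3K4me3, and after a running median over strength was subtracted the difference was −0.19. Of the 4890 sites that overlapped a listed H3K4me3 site, the 25% with the most H3K36me3 in Ewsr1 CKO had a median of −0.08 (126 RPM in B6 against 118 RPM in the mutant) and the 25% with the least 0.21 (34.6 RPM in B6 against 41.5 RPM in the mutant). After the running median over strength was subtracted these medians were −0.15 and 0.02. H3K4me3 of B6 was not used here, so these values describe the marks of the mutant only. Across the 8744 sites the log2 ratio had a Spearman's rho of −0.26 with H3K4me3, −0.24 with coding genes within 1 Mb, −0.23 with sites within 1 Mb, −0.21 with site width, −0.19 with mean level and −0.03 with distance from the last listed site (−0.11 without the distal 10 Mb). By site width the medians of the 25% groups went from 0.30 in the narrowest to 0.04 in the widest, and after the running median over strength was subtracted from 0.08 to −0.02. These are descriptions across sites that share 2 columns.

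**Figure D5:**
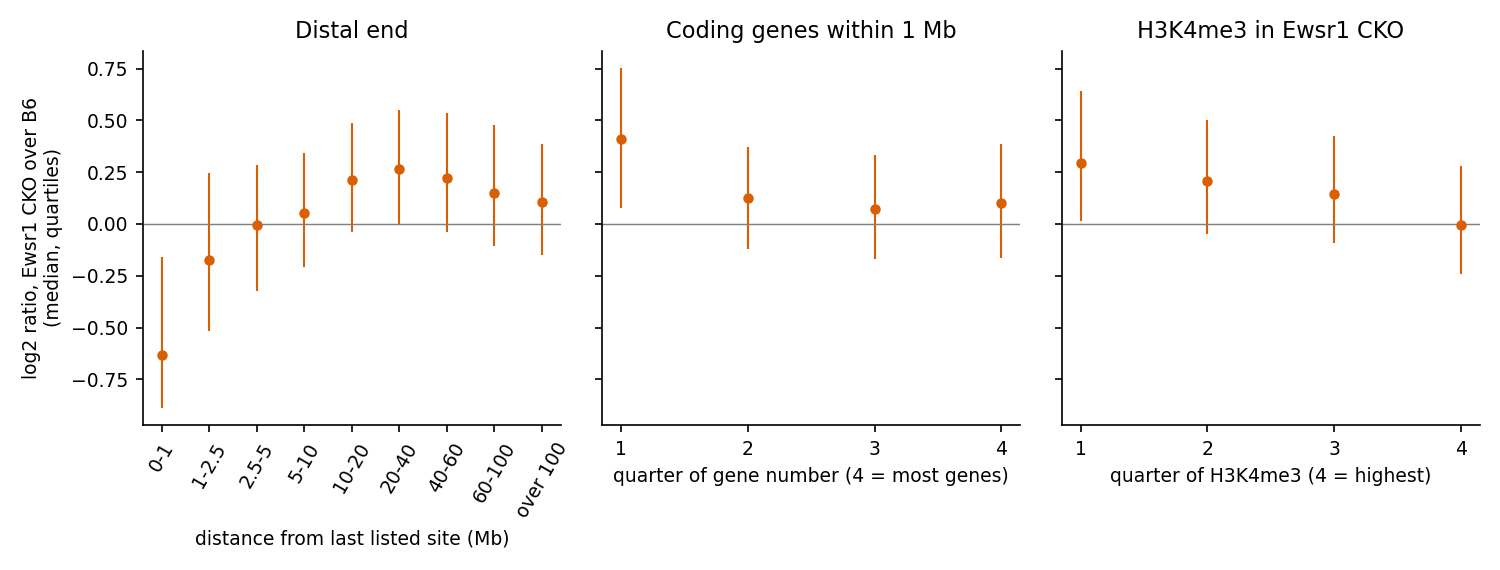
Median ratio (log2, Ewsr1 CKO over B6) with bars for the quartiles over sites, by distance from the last listed site of the chromosome (Mb), by 25% group of the number of coding genes within 1 Mb, and by 25% group of H3K4me3 in Ewsr1 CKO. The median runs from −0.63 within 1 Mb to 0.26 at 20 to 40 Mb and back to 0.11 beyond 100 Mb, is 0.41 in the gene-poorest group and at most 0.12 in the others, and falls from 0.30 to −0.003 with H3K4me3.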

How the data were processed

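Spermatocyte chromatin for DMC1 ChIP was fixed and sheared by sonication, and libraries were made with a denaturation step before adapter ligation, per the labels' protocols. BWA 0.5.10, Trimmomatic 0.32 and mm10 are named in the submitters' processing notes. The peak caller, duplicate handling, the RPM denominator and how replicates enter a column are not given in the sources used here. The authors deposited RPM values per shared site, 1 column per group. Samples were grouped by title. Another 4 columns of the tables matched no sample and were not used.

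No test was possible with 1 value per group. The log2 ratio used a pseudocount of 1 RPM. Fold counts used RPM without a pseudocount. Intervals are 95%. They cover counting error only, except order-statistic intervals and errors of medians, which reflect the spread over sites. Windows needed 5 sites. The running median over strength spanned 501 sites. Overlaps needed 1 bp. Gene positions came from RefSeq on GRCm38.p6. Variance components, the Gini coefficient and the fold counts were tested on simulated data.

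Sites named in the text are the 10 highest and 10 lowest ratios at or above median strength, with the 6 strongest sites, the 3 largest rank rises and 3 largest falls among sites in the upper 25% of either column, and the 4 highest and 4 lowest windows. The rank rule named no further site. The genome was not used here, so the motif search planned for whole sites was made in promoter windows. The members and lists were chosen with earlier results of these data known. Alternatives covered scaling, pseudocount, weak sites, site length, the X, window size and distal sites, and their effect is given in the closing section. Figures were drawn with matplotlib 3.10.9, and values were computed with pandas 2.3.3, scipy 1.17.1 and numpy 2.4.6 in Python 3.11.15.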

Additional observations from a re-analysis of the deposited data

How the results depend on the processing

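The median log2 ratio (0.16) was 0.060 with equal autosomal totals, −0.076 with equal autosomal medians, 0.13 without the weakest 25% of sites, 0.14 with X sites and 0.17 without the distal 10 Mb. The percent of lower sites (34.4) was 44.2, 56.8, 36.9 and 36.3 under the first 4 of these. Equal medians gave 191 sites at least 2-fold higher and 120 at least 2-fold lower. The 48 lower sites became 19 without the weakest sites and 15 without the distal 10 Mb.

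The fall in the share of the strongest 10% (−3.31 points) was −6.26 with the X, −3.01 without the 20 strongest sites, −3.03 without the weakest sites, and −1.35, −2.79 and −2.07 for the strongest 1, 5 and 50%. The Gini change (−0.037) was −0.0382 per kb of site length, −0.0602 with the X, −0.0353 without the 20 strongest and −0.0405 without the weakest sites, and the ratio of effective numbers (1.17) was 1.15, 1.49, 1.13 and 1.15 in that order. Spearman's rho (0.942) was 0.922 per kb and 0.903 without the weakest sites. The share of variance between windows (24.1%) was 34.7% at 5 Mb, 15.4% at 20 Mb, 27.8% after the running median over strength, 24.4% without the weakest sites and 20.9% without the distal 10 Mb.

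The distal difference (−0.22) was −0.35 within 5 Mb and −0.071 within 20 Mb. The strength difference (−0.25) was −0.30 without the weakest sites and −0.27 by Prdm9 het. By columns that enter the ratio it was −0.50 (B6) and 0.021 with an error of 0.049 (Ewsr1 CKO), so its size depends on the ranking column. The H3K4me3 difference (−0.30) was −0.34 without the weakest sites and −0.19 after the running median. The gene-poor difference (0.31) was 0.36 without the weakest sites. Its settings were chosen after seeing the data, as was leaving out the distal 10 Mb for all but the variance share. The Cdh6 site's log2 ratio became −0.0093 with equal medians. The cause of these shifts was not tested.

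Of the recomputed values of these results other than single sites, 37 stayed near the reported one (counts within 1.5-fold, others within an error from counting or order statistics, or within 1% where there was none), 40 moved and 2 reversed. Of those of the named sites, 74 stayed near, 29 moved and 1 reversed. No paired analysis was possible because each group has a single column. Leaving out a replicate could not be done for the same reason. Depth limits the weakest sites, the lowest of which held 12 reads in Ewsr1 CKO.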
